A study of Danio rerio with 36 samples.

Results

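Among the genes of the zebrafish eye, 55 of 31540 were high in sorted Müller glia (MG) at 96 and 192 hours post fertilization (hpf) but below the other cells at 72 and 120hpf. They were chosen from the measured values. The mean deposited log2 CPM (log2 of the reads of a gene per 1000000 reads) in MG had to exceed that in the other cells (C) by at least 1 at 96 and 192hpf, and had to be below it at 72 and 120hpf. The mean MG level had to be at least 3 at 96 and 192hpf, which is 8 CPM. All values at 72, 96, 120, and 192hpf therefore describe how the genes were chosen and were not tested, whereas 48 and 60hpf were not used.

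The cells came from the Tg(GFAP:GFP) line, in which a gfap promoter drives GFP. The labels call the tissue retinal, whereas by the study's methods whole eyes were dissected, pooled over many animals, and dissociated. The groups share this transgene, and the embryos were raised in phenylthiourea, which blocks pigmentation. GFP-positive cells were called MG and GFP-negative cells were called C at 48, 60, 72, 96, 120, and 192hpf, with 3 columns for each fraction and stage and 36 in all. C is a mixture of every other cell type of the eye, and in bulk samples fewer cells of a type and less RNA per cell cannot be told apart.

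MG are the radial glia of the retina. They span its whole depth, recycle visual pigment and transmitters, and seal the outer limiting membrane around the photoreceptors. In the zebrafish they are born late, and their processes elaborate while rods and cones mature next to them. No pathway analysis of the 55 genes was run. They include genes of photoreceptors and cilia, of lipid and isoprenoid metabolism, of the extracellular matrix, and of signaling, and those groupings were made after the values had been seen. Of the 55 genes, 53 have a symbol in the name tables. Symbols in capitals are the human-style names which the tables give to the zebrafish gene, so that the copy of a duplicated gene is fixed by its Ensembl identifier and not by its symbol.

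Outside 60hpf MG the columns held 1311849 to 8889893 reads on genes. The 60hpf MG columns held only 63463 to 90846 reads. In 9 of the 12 groups the columns differed by no more than read sampling (median chi-square ratio of 0.0704 to 1.01, where 1 is expected from sampling alone), so they were joined and counted as 1 library, and most stages thus have 1 library per fraction and no replicate error. P-values are not given for this reason. In these 9 groups replicates 1 and 2 had ratios of 0.0704 to 0.157, below what separate sampling of reads gives. Their close values are therefore not independent. 48hpf MG replicate 3 stood apart from its group (ratio of at least 136) and matched 72hpf MG (ratios of 0.865 to 0.946), and 48hpf C replicate 3 matched 48hpf MG replicates 1 and 2 (0.683 to 0.989). Both go against their labels. The 2-fold calls of MG against C at 48hpf are given with and without them. The stage medians, the figures, and the counts of highest and lowest stages include them. The median gene of 60hpf MG also did not differ from 96hpf C beyond sampling at that depth (0.984 to 1.05). Values below are CPM of the joined libraries unless stated otherwise, and intervals are exact 95% counting intervals that cover counting error only.

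**Figure D1:**
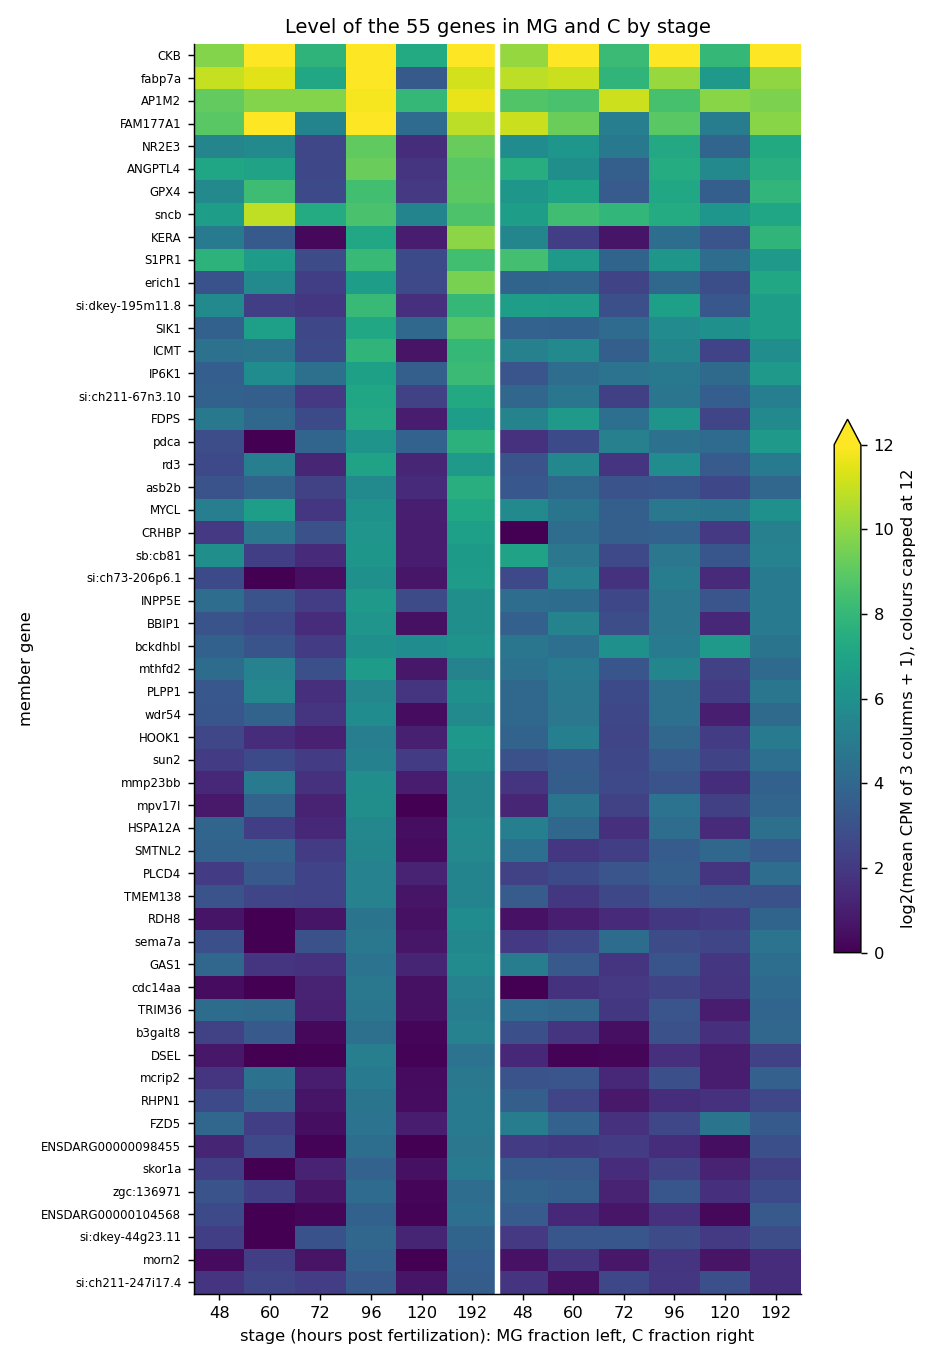
Level of each of the 55 genes (rows, ordered by mean MG level at 96 and 192hpf) in MG (left block) and C (right block) at the 6 stages (columns), as log2(mean CPM of 3 columns + 1), with colours capped at 12. MG is bright at 96 and 192hpf and dark at 72 and 120hpf for nearly all rows, C changes the same way more weakly, and FAM177A1 stands out in 60hpf MG.

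The pattern was an alternation of levels in MG, and C shared part of it. The median of the 55 genes in MG was 2.79, 1.43, 1.59, 5.91, -0.14, and 6.02 log2 CPM at 48, 60, 72, 96, 120, and 192hpf. In C the medians were 3.68, 3.93, 2.36, 4.23, 2.21, and 4.56 log2 CPM at the same stages. C was therefore also lowest at 72 and 120hpf. The median difference, MG minus C, was -0.93, -2.10, -1.08, 1.78, -1.93, and 1.60 log2 in the same order of stages. All 48hpf medians here include the replicate 3 columns that go against their labels. The 60hpf medians are limited by the depth of MG, where a gene without reads takes the lowest deposited value of -4.29. At that stage 34 of the 55 genes were under the floor of 38.0 CPM in both fractions. Over the 19046 genes that reached 1 CPM in 3 or more columns, the corresponding median differences were -0.46, -3.55, 0, -0.78, -0.56, and -0.39. TMM factors, which rescale the libraries, shifted the median of all genes by 0.48, -0.01, -0.23, 0.45, 0.17, and 0.36 at the 6 stages, and all 55 genes still met the conditions after this rescaling.

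**Figure D2:**
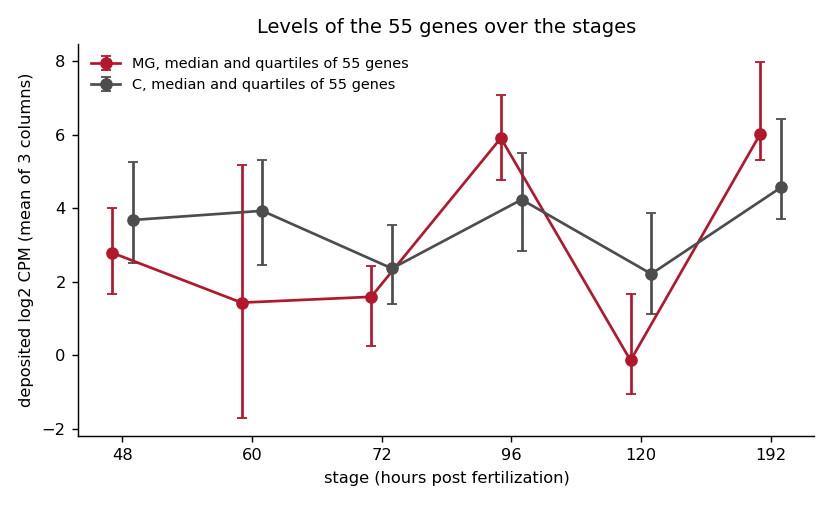
Deposited log2 CPM (y axis) of the 55 genes by stage (x axis) in MG and C, where points are the median over genes of the mean of 3 columns and bars are quartiles over genes. The MG median is 5.91 at 96hpf and 6.02 at 192hpf, and -0.14 at 120hpf, whereas the C median stays between 2.21 and 4.56.

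Compared between stages, the MG levels at 96 and 192hpf both exceeded the MG levels at 72 and 120hpf in 55 of 55 genes (41.0% of 19105 genes above the floor), and at least 2-fold in 53 (25.2%), the exceptions being bckdhbl and si:dkey-44g23.11. In C the levels at 96 and 192hpf were above those at 72 and 120hpf in 41 of 55 genes (54.6%), and at least 2-fold in 31 (27.6%). The median change of the mean level at 96 and 192hpf over that at 72 and 120hpf was 5.03 log2 in MG and 2.16 log2 in C for the 55 genes, and 0.36 log2 in MG and 1.0 log2 in C for all genes. In each of the 55 genes the change was larger in MG than in C, by 1.74 to 5.05 log2. The conditions on MG minus C require a larger change in MG, so this describes the choice of genes. With TMM factors the medians were 4.70 log2 in MG and 1.2 log2 in C, and the count at least 2-fold above was 51 in MG (21.3% of all genes) and 11 in C (11.4%). The number of genes that alternated in C thus depended on the scaling, whereas that in MG moved by 2.

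With 60hpf left aside because its floor was 38.0 CPM, the highest MG level was at 192hpf in 38 genes and at 96hpf in 17. The lowest MG level was at 120hpf in 34 genes, at 72hpf in 18, and at 48hpf in 3. In C the highest level was at 192hpf in 28 genes, at 48hpf in 13, at 96hpf in 9, at 72hpf in 3, and at 120hpf in 2. Shares of all genes were not computed for these counts. With 60hpf left aside, the median of the 19046 tested genes was also highest at 192hpf (2.98 log2 CPM in MG and 3.60 in C). It was lowest at 120hpf in MG (0.83 log2 CPM) and at 72hpf in C (1.80 log2 CPM). The counts therefore do not show whether the chosen genes differ from all genes in this respect. MG at 96 and 192hpf also exceeded MG at 48hpf without replicate 3, by at least 2-fold in 47 and 48 genes (18.5% and 21.9% of all genes), by a median of 2.33 and 2.62 log2. C exceeded C at 48hpf likewise in 15 and 22 genes (18% and 21.2%). The genes were chosen for high MG levels at 96 and 192hpf, so the counts in MG are not independent of the choice.

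Composition differed between the same libraries. The 55 genes took 0.155% to 0.163% of reads in 72hpf MG, 5.15% to 5.82% in 96hpf MG, 0.0635% to 0.0639% in 120hpf MG, and 5.01% to 5.36% in 192hpf MG. In C they took 0.333% to 0.342%, 1.60% to 1.65%, 0.184% to 0.187%, and 1.33% to 1.47%. CKB, described below, made up most of these shares at 96 and 192hpf. It had 32956 and 36533 CPM in MG at these stages, against 12667 and 8968 CPM in C. Genes of ribosomal proteins took 0.489% to 0.494%, 1.73% to 1.79%, 0.375% to 0.379%, and 2.4% to 2.44% of reads in MG at 72, 96, 120, and 192hpf, and 1.90%, 3.97% to 4.04%, 1.48% to 1.49%, and 6.98% to 7.06% in C. The ribosomal protein share was thus low at 72 and 120hpf in both fractions, as the 55 genes were, and its part in the alternation was not tested.

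**Figure D3:**
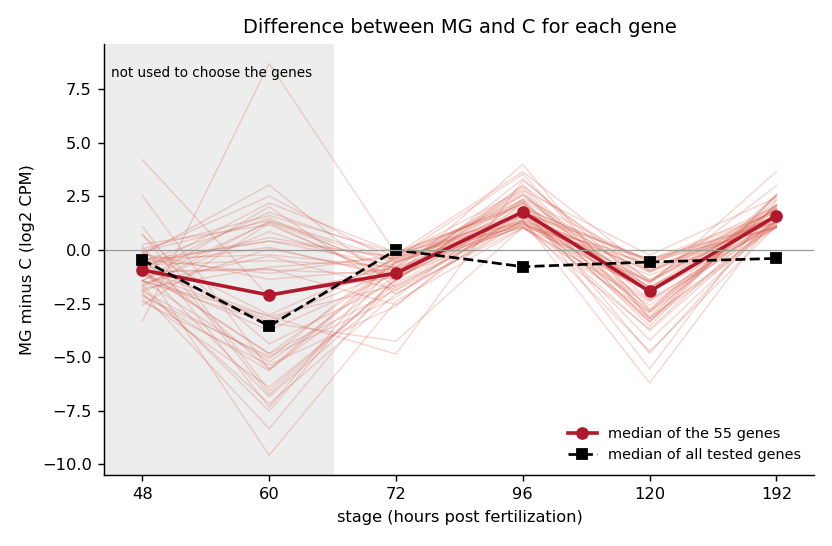
MG minus C in deposited log2 CPM (y axis) by stage (x axis) for each of the 55 genes (thin lines), their median (circles), and the median of all 19046 tested genes (squares), where the shaded stages were not used to choose the genes. The 55 lines lie above 1 at 96 and 192hpf and below 0 at 72 and 120hpf by construction, and spread from -9.58 to 8.70 at 60hpf. No floor was applied here, and the 60hpf MG columns are shallow. The gene at -9.58, si:ch73-206p6.1, had 0 reads in 60hpf MG and differed by -0.04 log2 with the floor.

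At 72hpf, 24 of the 55 genes were at least 2-fold lower in MG (28.9% of all genes above the floor), 25 were within 2-fold, and 6 were under the floor of 3 reads in both fractions. At 96hpf all 55 were at least 2-fold higher in MG (9.05%). At 120hpf 32 were at least 2-fold lower (40.1%), 18 were within 2-fold, and 5 were under the floor. At 192hpf 54 were at least 2-fold higher (9.45%). The counting intervals of the difference included 0 for 26 genes at 72hpf and for 20 genes at 120hpf, and lay above 0 for all genes at 96 and 192hpf. For 26 of the genes, then, a level below C at 72hpf was not distinguishable from an equal level at this depth.

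**Figure D4:**
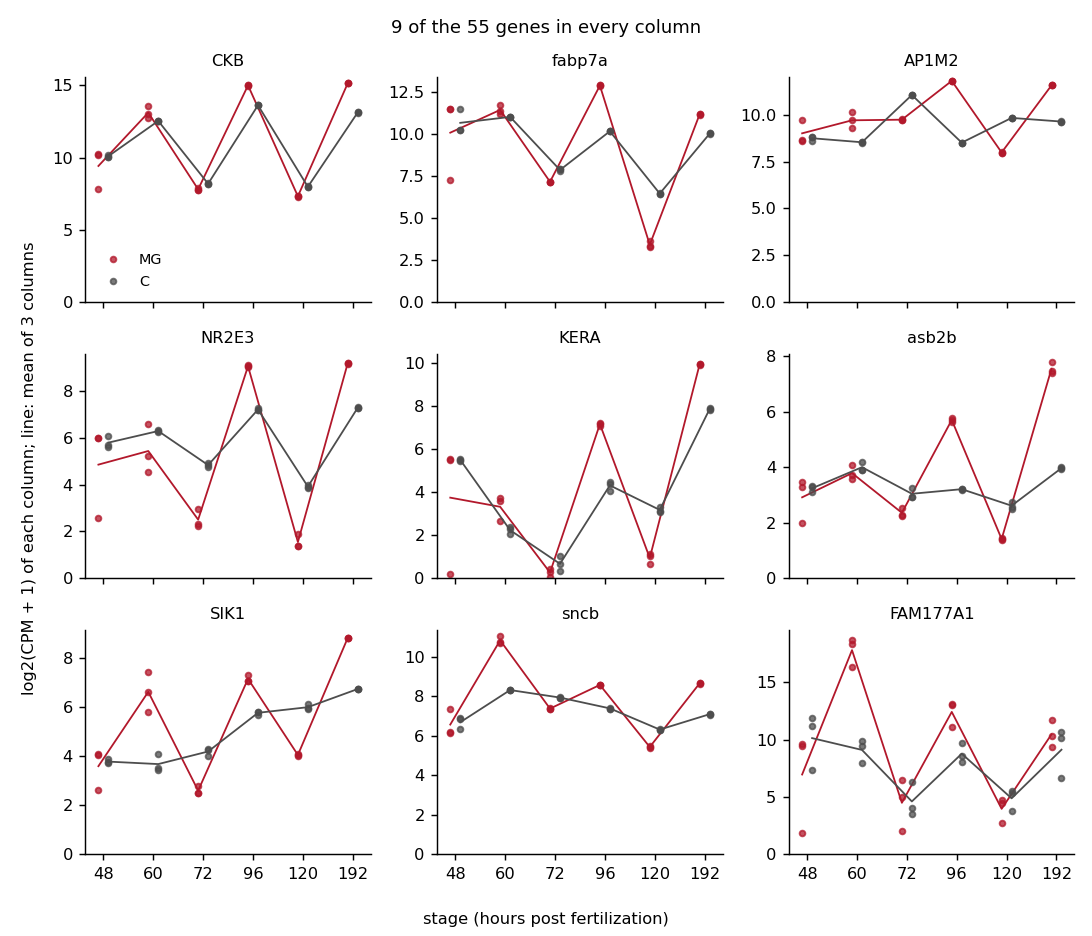
log2(CPM + 1) in each column (points; lines join the means of 3 columns) by stage (x axis) in MG and C for 9 of the 55 genes. Columns of a group nearly coincide except at 48hpf, where replicate 3 stands apart, in the shallow 60hpf MG, and in FAM177A1, whose columns scatter at every stage.

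The most abundant of the genes was CKB (ENSDARG00000043257), the brain form of creatine kinase, which buffers ATP through phosphocreatine. It had 222, 32956, 158, and 36533 CPM in MG at 72, 96, 120, and 192hpf, against 290.2, 12667, 251, and 8968 CPM in C. In the 96hpf columns it had 32731, 32816, and 33321 CPM in MG, against 12588, 12597, and 12815 CPM in C, and in the 120hpf columns 162, 164, and 149 CPM in MG, against 243, 244, and 265 CPM in C. The columns of MG and C did not overlap at either stage. They are 1 joined library per fraction, however, and the direction was fixed by the choice of genes. Each fraction differed far more between the stages than MG differed from C. The interval of the difference was 1.37 to 1.39 log2 at 96hpf and -0.79 to -0.52 log2 at 120hpf.

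fabp7a (ENSDARG00000007697), the brain fatty acid binding protein of radial glia, was the only member on the list of Müller glia markers. It had 141, 7561, 9.57, and 2305 CPM in MG at 72, 96, 120, and 192hpf, against 230.1, 1142, 86.2, and 1033 CPM in C. In the columns of 120hpf it had 8.98, 8.67, and 11.1 CPM in MG, against 86.7, 86.1, and 85.8 CPM in C. A gene that marks MG was hence highest in 96hpf MG and below its C level at 120hpf, where the interval of the difference was -3.60 to -2.79 log2. AP1M2 (ENSDARG00000096454), the medium chain of a clathrin adaptor that sorts membrane proteins in epithelia of mammals, had 863, 3646, 255, and 3087 CPM in MG at 72, 96, 120, and 192hpf, against 2158, 367, 921, and 804 CPM in C. Unlike most of the genes, it was lower in C at 96 and 192hpf than in C at 72hpf.

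Several members act in photoreceptors or in cilia. NR2E3 (ENSDARG00000045904), a nuclear receptor of photoreceptor precursors and rods, had 4.82, 538, 1.96, and 590.4 CPM in MG at 72, 96, 120, and 192hpf, against 27.7, 148, 14.1, and 156 CPM in C. Its difference was -2.56 and -2.86 log2 at 72 and 120hpf, and 1.86 and 1.92 log2 at 96 and 192hpf. RDH8 (ENSDARG00000099217), which in mammals reduces all-trans-retinal in outer segments, had 0.588, 23.7, 0.439, and 56.6 CPM in MG at 72, 96, 120, and 192hpf, against 1.66, 2.82, 3.41, and 13.8 CPM in C. It was under the floor in both fractions at 48hpf and highest at 192hpf in both. rd3, which in mammals restrains guanylate cyclase in photoreceptors, had 1.43, 119, 1.40, and 90.1 CPM in MG at 72, 96, 120, and 192hpf, against 2.56, 56.3, 9.92, and 29.7 CPM in C. pdca, phosducin, which binds the beta and gamma subunits of transducin, had 14.0, 72.8, 12.5, and 209 CPM in MG at 72, 96, 120, and 192hpf, against 36.3, 21.4, 17.0, and 86.9 CPM in C. Of these 4, pdca differed least in MG between 120 and 192hpf, and its interval at 120hpf included 0 (-0.97 to 0.06 log2).

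Of the genes with a known place at the cilium, INPP5E (ENSDARG00000103926), a phosphoinositide phosphatase of the ciliary membrane, had 3.59, 88.0, 5.79, and 61.8 CPM in MG at 72, 96, 120, and 192hpf, against 5.11, 25.7, 7.96, and 30.3 CPM in C. TMEM138 (ENSDARG00000090543), a membrane protein needed for cilia, had 4.37, 38.3, 0.608, and 41.0 CPM in MG at 72, 96, 120, and 192hpf, against 5.09, 8.61, 7.59, and 6.88 CPM in C. BBIP1, a subunit of the BBSome that moves membrane proteins in cilia, had 1.91, 74.4, 0.439, and 62.0 CPM in MG at 72, 96, 120, and 192hpf, against 6.14, 25.7, 1.60, and 29.8 CPM in C. All were 2-fold or more above C at 96 and 192hpf by choice, and the intervals at 72hpf included 0 for INPP5E (-1.34 to 0.40 log2) and TMEM138 (-1.06 to 0.62 log2) but not for BBIP1 (-2.65 to -0.70 log2). HOOK1, an adaptor of the dynein motor, had 1.14, 34.3, 1.08, and 83.6 CPM in MG at 72, 96, 120, and 192hpf, against 4.69, 14.5, 3.32, and 29.2 CPM in C.

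A group of enzymes acts on lipids, isoprenoids, and oxidants. FDPS (ENSDARG00000040890), which makes the farnesyl diphosphate used for sterols and for the lipid tails of proteins, had 5.48, 149, 0.922, and 105 CPM in MG at 72, 96, 120, and 192hpf, against 20.2, 72.6, 4.78, and 50.6 CPM in C. ICMT (ENSDARG00000020241), which methylates the end of such lipid-tailed proteins, had 5.39, 227, 0.537, and 251 CPM in MG at 72, 96, 120, and 192hpf, against 11.6, 44.8, 4.33, and 58.8 CPM in C. GPX4 (ENSDARG00000076836), which reduces lipid hydroperoxides, had 5.45, 327, 3.01, and 495 CPM in MG at 72, 96, 120, and 192hpf, against 10.1, 140.1, 11.5, and 235 CPM in C. In these 3 genes the level at 120hpf was more than 10-fold under that at 96hpf in both fractions. mthfd2, a mitochondrial enzyme of folate metabolism, had 6.64, 96.7, 0.698, and 40.5 CPM in MG at 72, 96, 120, and 192hpf, against 8.20, 44.8, 3.94, and 16.3 CPM in C. bckdhbl had 3.35, 64.4, 56.3, and 70.7 CPM in MG at 72, 96, 120, and 192hpf, against 64.7, 30.9, 88.8, and 23.6 CPM in C. Its MG level at 120hpf was thus close to those at 96 and 192hpf, while its C level was highest at 120hpf.

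Secreted proteins and matrix enzymes formed another group. KERA (ENSDARG00000056938), keratocan, a proteoglycan of the corneal stroma in mammals, had 0.202, 141, 0.929, and 971 CPM in MG at 72, 96, 120, and 192hpf, against 0.613, 18.9, 7.99, and 229 CPM in C. It showed the largest change between these stages of all 55 genes in MG, with the 192hpf columns at 977, 972, and 965 CPM in MG, against 235, 230.4, and 223 CPM in C. ANGPTL4 (ENSDARG00000035859), an inhibitor of lipoprotein lipase, had 4.99, 606, 2.59, and 486 CPM in MG at 72, 96, 120, and 192hpf, against 11.3, 169, 48.4, and 189 CPM in C. DSEL (ENSDARG00000061461), named for its likeness to dermatan sulfate epimerase, had 0.0375, 34.5, 0.0997, and 23.1 CPM in MG at 72, 96, 120, and 192hpf, against 0.171, 2.12, 0.857, and 3.93 CPM in C. It was thus under the floor of 0.767 CPM in both fractions at 72hpf and under that of 0.969 CPM at 120hpf. CRHBP (ENSDARG00000024831), which binds corticotropin-releasing hormone, had 6.77, 76.4, 0.871, and 109 CPM in MG at 72, 96, 120, and 192hpf, against 11.6, 12.9, 3.01, and 36.9 CPM in C. sema7a (ENSDARG00000078707), a semaphorin anchored to the membrane, had 6.99, 27.4, 0.643, and 47.4 CPM in MG at 72, 96, 120, and 192hpf, against 18.2, 5.67, 4.60, and 22.4 CPM in C. All 5 of these genes were under 1 CPM in MG at 120hpf apart from ANGPTL4.

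Other members are receptors or intracellular regulators. S1PR1 (ENSDARG00000042690), a receptor for sphingosine-1-phosphate, had 5.95, 282, 5.46, and 329 CPM in MG at 72, 96, 120, and 192hpf, against 13.7, 81.9, 18.7, and 85.5 CPM in C. FZD5, a receptor for Wnt proteins, had 0.341, 22.5, 0.960, and 30.4 CPM in MG at 72, 96, 120, and 192hpf, against 2.3, 4.82, 23.8, and 9.57 CPM in C, and GAS1, a Hedgehog co-receptor, had 2.3, 22.7, 1.34, and 54.5 CPM in MG at 72, 96, 120, and 192hpf, against 2.64, 7.61, 2.73, and 18.9 CPM in C. FZD5 in C at 120hpf was above its C levels at 96 and 192hpf, so that it alternated in MG but not in C. SIK1 (ENSDARG00000058606), a salt-inducible kinase and the only member on the list of immediate early genes, had 5.09, 142, 15.6, and 452 CPM in MG at 72, 96, 120, and 192hpf, against 17.4, 53.6, 63.0, and 106 CPM in C. MYCL (ENSDARG00000034956), a transcription factor of the Myc family, had 2.72, 68.8, 0.984, and 139 CPM in MG at 72, 96, 120, and 192hpf, against 11.4, 27.1, 24, and 63.6 CPM in C. IP6K1 (ENSDARG00000073744), which makes inositol pyrophosphates, had 20.4, 112, 11.2, and 291 CPM in MG at 72, 96, 120, and 192hpf, against 22.4, 27.9, 17.0, and 86.5 CPM in C, with intervals of -0.52 to 0.25 log2 at 72hpf and -1.13 to -0.07 log2 at 120hpf. Its level below C at 72hpf was thus not distinguishable from an equal level.

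The genes with the largest differences at both 96 and 192hpf spanned low and high levels, and AP1M2, KERA, ICMT, DSEL, TMEM138, and RDH8, given above, were among them. asb2b (ENSDARG00000102490), a subunit of a ubiquitin ligase, had 4.14, 51.3, 1.66, and 188 CPM in MG at 72, 96, 120, and 192hpf, against 7.29, 8.25, 5.13, and 14.7 CPM in C. RHPN1 (ENSDARG00000052454), rhophilin, a scaffold protein that binds a small GTPase, had 0.604, 23.9, 0.303, and 28.9 CPM in MG at 72, 96, 120, and 192hpf, against 0.759, 2.0, 2.32, and 4.78 CPM in C. SMTNL2 (ENSDARG00000055632), a smoothelin-like protein, had 3.35, 44.4, 0.291, and 49.6 CPM in MG at 72, 96, 120, and 192hpf, against 3.62, 10.2, 15.2, and 9.96 CPM in C. All 3 were below 5 CPM in MG at 72hpf and below 2 CPM at 120hpf. erich1 (ENSDARG00000078130) had 3.66, 105, 5.32, and 761 CPM in MG at 72, 96, 120, and 192hpf, against 4.44, 15.1, 6.31, and 139 CPM in C. si:ch211-67n3.10 (ENSDARG00000102544) had 2.97, 130.5, 4.19, and 155 CPM in MG at 72, 96, 120, and 192hpf, against 3.91, 25.6, 11.0, and 35.7 CPM in C. morn2 (ENSDARG00000071360) had 0.533, 12.7, 0, and 11.1 CPM in MG at 72, 96, 120, and 192hpf, against 0.724, 2.57, 0.550, and 1.90 CPM in C. Of the genes whose values are given here, asb2b, RHPN1, erich1, and si:ch211-67n3.10 were higher at 192hpf than at 96hpf in both fractions. morn2 reached the floor in neither fraction at 72 or 120hpf.

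The remaining 20 members that are not described one by one had 0.0767 to 7.22 CPM in MG at 72hpf, 9.26 to 272 CPM at 96hpf, 0 to 3.29 CPM at 120hpf, and 10.8 to 254 CPM at 192hpf, against 0.427 to 8.11, 1.94 to 108, 0.210 to 8.43, and 2.01 to 102 CPM in C. si:dkey-195m11.8 was the highest of them in both fractions at 96 and 192hpf. Among them are mmp23bb, a metalloprotease, skor1a, a transcriptional corepressor, sun2, a protein of the nuclear envelope, HSPA12A, a distant relative of the Hsp70 chaperones, TRIM36, a ubiquitin ligase, PLCD4, a phospholipase C, PLPP1, a lipid phosphatase, cdc14aa, a protein phosphatase, and b3galt8, named as a galactosyltransferase. The others are wdr54, mcrip2, mpv17l, sb:cb81, si:ch211-247i17.4, si:dkey-44g23.11, si:ch73-206p6.1, zgc:136971, and the unnamed ENSDARG00000098455 and ENSDARG00000104568. Their median in MG was 34 CPM at 96hpf and 39.9 CPM at 192hpf, but 1.39 CPM at 72hpf and 0.466 CPM at 120hpf, so that most calls below C at 120hpf rest on MG levels under the floor of 0.969 CPM.

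FAM177A1 (ENSDARG00000079636) needs to be read by column. Its columns differed by 1.08-fold to 30.1-fold within the 12 joined libraries in which it had at least 50 reads. They differed by at least 3.08-fold in all of these but 48hpf MG (1.08-fold) and 48hpf C (1.56-fold). With the same minimum of 50 reads, the columns of the other members differed by at most 1.84-fold. It had 8546, 2238, and 8799.6 CPM in 96hpf MG, against 826, 268, and 384 CPM in 96hpf C. At 192hpf it had 1318, 652, and 3339 CPM in MG, against 1611, 97.8, and 1112 CPM in C. The columns of FAM177A1 in the 2 fractions did not overlap at 96hpf but did at 192hpf. At 72hpf it had 3.02, 90.8, and 30.7 CPM in MG, against 77.8, 10.2, and 15.9 CPM in C, so that its mean difference on the log2 scale was -0.19 while the joined libraries gave 0.26. Without replicate 1 or without replicate 2 it no longer met the conditions.

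Near the limit of 1, the members just inside were si:ch73-206p6.1 (ENSDARG00000077468), INPP5E, and FDPS, whose smaller difference at 96 and 192hpf was 1.02, 1.03, and 1.03 log2. Just outside were hsp70l (0.99 log2), a heat shock protein, DYNC2LI1 (0.97 log2), a subunit of the motor of ciliary transport, and SIX6 (0.97 log2), an eye transcription factor. Near the limit of 0, SMTNL2 (-0.11 log2), IP6K1 (-0.13 log2), and si:dkey-44g23.11 (-0.16 log2) were closest, all at 72hpf. Among 704 genes at least 1 log2 higher in MG at 96 and 192hpf with the same minimum level, 387 were below C at neither 72 nor 120hpf, 40 at 72hpf only, 222 at 120hpf only, and 55 at both. The same conditions set for other pairs of stages were met by 21 genes for 72 and 96hpf, 477 for 72 and 120hpf, 13 for 72 and 192hpf, 5 for 96 and 120hpf, and 9 for 120 and 192hpf. The pairing of 72 with 120hpf held the most genes and that of 96 with 192hpf the next most, also with TMM factors (232 and 114 genes, and at most 28 for the others).

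The stages that were not used to choose the genes gave another picture. At 48hpf, with all columns, 51 of the 55 genes were above the floor of 2.28 CPM in at least 1 library, and 31 were at least 2-fold lower in MG (28.5% of all genes above the floor) and 2 higher (11.6%). That count rested on replicate 3 of MG. Without the replicate 3 columns of both fractions, 49 genes were above the floor, 6 were at least 2-fold lower in MG (18.3% of all genes), and 3 were higher (2.83%). Without only 48hpf MG replicate 3, 0 were lower and 1 was higher. That setting keeps 48hpf C replicate 3, which matches 48hpf MG, as a C library of its own. The differences are thereby drawn toward 0, and the shares of all genes were not computed for it. By limma fitted on the columns, which counts joined columns as replicates, 2 members were higher in MG (4.36% of all genes) and 3 lower (9.61%), and the same numbers were called with the replicate number as a block (4.29% and 9.92% of all genes). Without both replicate 3 columns, 40 of the 49 genes above the floor were within 2-fold of C. Most of all genes above the floor were likewise not called (18.3% lower and 2.83% higher), so this is not particular to the 55 genes.

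Without the replicate 3 columns, fabp7a had 2877 and 2863 CPM in MG at 48hpf, against 1205 and 1212 CPM in C, a difference of 1.25 log2. INPP5E (1.11 log2) and sema7a (1.1 log2) were also at least 2-fold higher, where the interval lay above 0 for INPP5E (0.38 to 1.94 log2) but not for sema7a (-0.35 to 3.03 log2). S1PR1 had 329.6 and 312 CPM in MG, against 351 and 353 CPM in C, and KERA had 43.7 and 44.8 CPM in MG, against 42.5 and 45.7 CPM in C. Both were thus detected at 48hpf at similar levels in the fractions. The lowest was FAM177A1 at -2.05 log2, with 710.1 and 770.1 CPM in MG, against 3743 and 2403 CPM in C. The others at least 2-fold lower were sun2, mcrip2, HOOK1, HSPA12A, and skor1a, from -1.52 to -1.01 log2, all with intervals below 0.

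With replicate 3 included, the differences at 48hpf ranged from -4.0 log2 for FAM177A1 to 1.17 log2 for pdca. sb:cb81, S1PR1, si:dkey-195m11.8, ANGPTL4, MYCL, KERA, and HSPA12A followed FAM177A1 at the low end, from -2.94 to -2.07 log2. Without the replicate 3 columns, S1PR1, ANGPTL4, MYCL, and KERA were within 2-fold, at -0.14, 0.24, -0.10, and 0.01 log2. HSPA12A stayed at least 2-fold lower, at -1.08 log2, and si:dkey-195m11.8 and sb:cb81 were at -0.69 and -0.54 log2. The counting intervals lay below 0 for HSPA12A (-1.53 to -0.63 log2), si:dkey-195m11.8 (-0.94 to -0.42 log2), and sb:cb81 (-0.78 to -0.29 log2). At the high end, pdca and CRHBP were detected mainly in MG replicate 3, with 15.4 and 8.38 CPM there.

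At 60hpf the depth of MG limited the comparison, and 34 of the 55 genes were under the floor of 38.0 CPM in both fractions. Of the 21 others, 6 were at least 2-fold higher in MG (8.98% of all genes above the floor) and 2 were lower (29.3%). The genes that were higher were SIK1, AP1M2, GPX4, MYCL, sncb, and FAM177A1, and those that were lower were FDPS and si:dkey-195m11.8. SIK1 and MYCL were under the floor in C and passed it only through MG. FDPS and si:dkey-195m11.8 passed it only through C. The size of the difference in these genes was thus set in part by the floor. sncb (ENSDARG00000104945), beta-synuclein, a protein of presynaptic terminals, had 1636, 2143, and 1684 CPM in MG, against 316, 314, and 319 CPM in C. Its columns did not overlap, though they are 1 joined library per fraction and not independent. The interval was 2.24 to 2.74 log2. At the stages used for the choice sncb had 165, 378, 42.2, and 400.3 CPM in MG at 72, 96, 120, and 192hpf, against 243, 166, 78.5, and 135 CPM in C. SIK1 had 96.9, 173, and 55 CPM in MG, against 10.4, 9.75, and 16.2 CPM in C, and MYCL had 121, 126, and 66.0 CPM in MG, against 25.3, 25, and 23.5 CPM in C. The columns of neither gene overlapped, but they are 1 joined library per fraction. The levels of both in MG rest on a mean of 8 reads per column. With TMM factors 4 members were higher and 0 were lower at 60hpf, and the shares of all genes were not computed for that setting. By limma on the columns, with no floor, 11 members were higher (6.17% of all genes) and 26 lower (70.7%), and the numbers were the same with the replicate block (6.12% and 70.6% of all genes).

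FAM177A1 alone took 33.9%, 8.30%, and 43.7% of the reads in the 3 columns of 60hpf MG (338927, 83024, and 437209 CPM), against 967, 253, and 693 CPM in C. This share lowers the CPM of every other gene in those columns. With FAM177A1 left out of the read totals, a setting chosen after the data had been seen, 7 of the other members were at least 2-fold higher in MG (14.3% of all genes above the floor) and 0 were lower (18.9%), since ANGPTL4 and CKB joined the genes that were higher. Of the members, fabp7a had 2666, 3404, and 2323 CPM in 60hpf MG, against 2075, 2071, and 2063 CPM in C, and CKB had 8367, 12086, and 6918 CPM in MG, against 5899, 5920.0, and 6049 CPM in C. Both were higher in MG in every column, and within 2-fold as deposited.

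The labelled cell type was checked against its markers. rlbp1a, which encodes a retinoid-binding protein of MG, had 37.6, 1174, 32.2, and 746 CPM in MG at 72, 96, 120, and 192hpf, against 3.34, 7.34, 0.744, and 52.0 CPM in C. gfap, whose promoter drives the GFP, had 2.31, 17.3, 0.730, and 10.2 CPM in MG, against 0.170, 1.44, 2.5, and 0.234 CPM in C. rlbp1a was thus higher in MG at all 4 stages, whereas gfap was low throughout and lower in MG at 120hpf. Of the 25 genes matched to the Müller glia list, which include the member fabp7a, 20, 20, 17, and 22 were above the floor at the 4 stages. Of these, 10, 13, 8, and 13 were at least 2-fold higher in MG, and 5, 4, 6, and 7 were lower. Of all genes above the floor, 29.1%, 9.05%, 25.4%, and 9.45% were higher and 28.9%, 34.7%, 40.1%, and 27.8% lower at these stages. The summed level of the Müller glia list was 4778, 28099, 4019.8, and 22164 CPM in MG, against 755, 3329.6, 1926, and 6841 CPM in C.

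Photoreceptor genes, like the 55 genes, were mostly higher in MG at 96 and 192hpf, but unlike them also at 72hpf. NR2E3 is itself on the rod list. Of the rod markers above the floor, 13 of 18, 17 of 19, 5 of 19, and 17 of 19 were at least 2-fold higher in MG at 72, 96, 120, and 192hpf, and 2, 0, 5, and 0 were lower. Their summed level was 3464, 13920.0, 7129, and 16875 CPM in MG, against 1119, 2352, 2217, and 3775 CPM in C. Of the cone markers, 20 of 29, 23 of 32, 5 of 30, and 25 of 31 were higher in MG, and 5, 4, 12, and 2 were lower. The summed level of the cone markers was 7678, 48144, 4502, and 45279 CPM in MG, against 1334, 7716, 3971, and 7911 CPM in C. In MG this sum, over 41 matched genes, exceeded that of the 25 genes of the Müller glia list at all 4 stages. The GFP fraction therefore held abundant rod and cone RNA, with the highest sums at 96 and 192hpf. The cone gene pde6c was listed at 0 in every group. The part of this photoreceptor RNA in the result for the 55 genes was not tested.

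**Figure D5:**
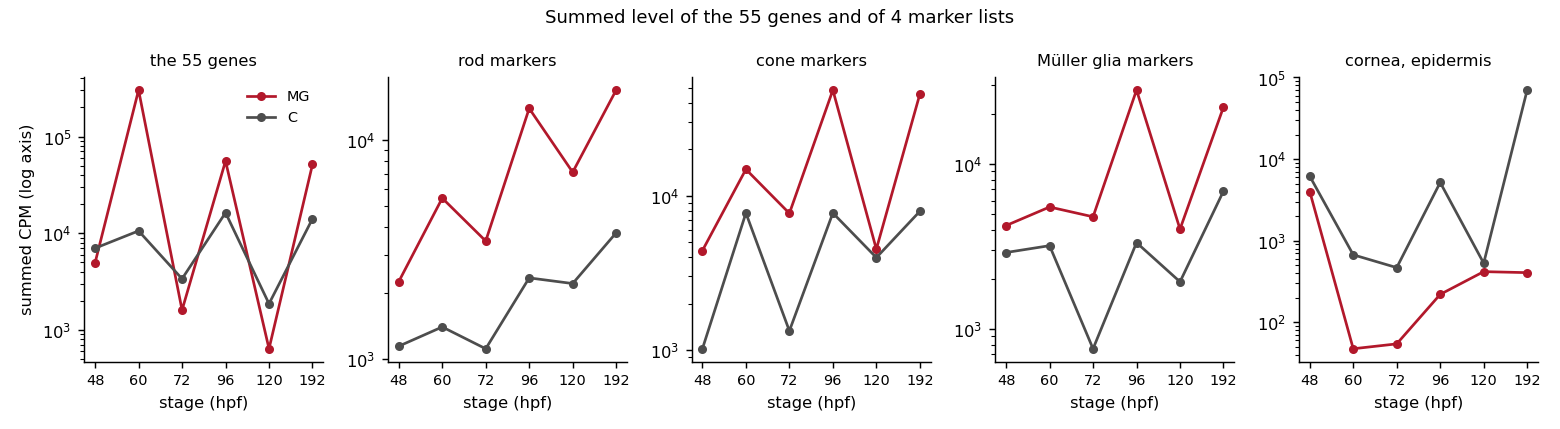
Summed CPM (log axis) of the 55 genes and of the rod, cone, Müller glia, and cornea or epidermis marker lists by stage (x axis) in MG and C. The rod and cone sums rise in MG at 96 and 192hpf as the 55 genes do, but unlike these they stay above C at 72 and 120hpf.

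Markers of cornea and epidermis ran the other way at 96 and 192hpf. They summed to 220.0 and 406 CPM in MG at 96 and 192hpf, against 5173 and 70142 CPM in C, and 29 of 30 and 30 of 30 were at least 2-fold lower in MG. At 120hpf, by contrast, 10 of 26 were higher in MG and 5 were lower. Their part in the result was not tested either. KERA, which is known from the cornea, was higher in MG at 96 and 192hpf, unlike this list. It was chosen for that difference, so no conclusion is drawn from it.

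The other lists to which members belong were not mostly higher in MG at 96 and 192hpf. Of the immediate early genes, with SIK1 as the only member, 26 of 50 and 21 of 52 were at least 2-fold lower in MG at 96 and 192hpf, and 6 and 4 were higher. At 72 and 120hpf 29 of 47 and 36 of 49 of them were lower, and 4 and 6 were higher. Their summed level was 990.4, 3984, 815, and 4519.8 CPM in MG at 72, 96, 120, and 192hpf, against 1674, 5183, 5686, and 6075 CPM in C, so that the sum in MG alternated as the 55 genes did but stayed below C. Of the genes of sterol and fatty acid synthesis, with FDPS as the only member, 4 of 23 and 5 of 23 were higher at 96 and 192hpf, and 2 and 3 were lower. At 72 and 120hpf 3 of 20 and 11 of 20 of them were lower, and 7 and 1 were higher. Of the genes of the retinoid cycle, with RDH8 as the only member, 7 of 20 and 6 of 20 were higher at 96 and 192hpf, and 10 and 10 were lower. At 72 and 120hpf 6 of 18 and 9 of 19 of them were higher, and 8 and 7 were lower. Of the cell cycle genes, none of which is a member, 29 of 30 and 30 of 30 were lower in MG at these stages. The median differences of the 3 lists with members were -1.06 and -0.61 log2 for immediate early genes, 0.17 and 0.25 log2 for sterol and fatty acid synthesis, and -0.94 and -0.98 log2 for the retinoid cycle, beside medians of -0.64 and -0.36 log2 for all genes above the floor.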

How the data were processed

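The members and gene lists were chosen with earlier results of these data known. MG and C sorted at 6 stages (12 groups) were sequenced after RNA amplification. The authors aligned reads with HISAT2 (Zv9 by the study's methods, GRCz10 by the submitters' processing notes) and deposited log2 CPM of 31540 genes in 36 columns. The values hold a prior of 0.25 read scaled to library size and no TMM factor, and fall on steps of 0.01 read, which gave the reads back. Columns differing by no more than sampling (median chi-square ratio of 1.1 or less for genes with at least 20 reads, single linkage) were joined, which gave 14 libraries. No label states separate animals for columns. CPM worth under 3 reads in the shallower library were set to that floor, stage by stage, and 2-fold differences were called without p-values.

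Python 3.11.15 (numpy 2.4.6, pandas 2.3.3, scipy 1.17.1, matplotlib 3.10.9) was used, with limma 3.58.1 in R 4.3.3 for an alternative fit on columns (19046 genes, 12 group means, eBayes trend, Benjamini-Hochberg). TMM factors (scaling that equalises typical genes) came from these reads (trims of 0.3 and 0.05). Steps were tested on simulated data. Alternatives were TMM scaling, other floors and pseudocounts, unjoined columns, the limma fits, and leaving out replicates. Named were the 12 members with the largest smaller difference, the 10 of highest MG level, those on a list, those 2-fold apart at 60hpf, the 8 highest and 8 lowest at 48hpf, and the 3 nearest genes on either side of the limit. rd3, BBIP1, HOOK1, mthfd2, bckdhbl, FZD5, GAS1, and the members given by name only were added after their values were seen. No sequence is shown and promoter and protein features were not analysed here. A gene of the rod marker list is not reported here and was left out of its counts and sums.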

Additional observations from a re-analysis of the deposited data

Results flagged for a closer look

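In 4 members that were above the floor at both stages, every MG column was below every C column at 48hpf (replicates 1 and 2) and above every C column at 60hpf, where the difference was at least 2-fold. This opposition was not tested, and the share of all genes that show it was not computed. At 60hpf the difference was 1.22 log2 for AP1M2, 1.3 log2 for GPX4, 8.81 log2 for FAM177A1, and 2.53 log2 for sncb. At 48hpf without the replicate 3 columns it was -0.17, -0.25, -2.05, and -0.70 log2 for the same genes. At 48hpf these columns are 1 joined library per fraction, and so are the 60hpf columns. The columns are therefore not independent at either stage. The counting interval at 48hpf included 0 for GPX4 (-0.54 to 0.06 log2) and lay below 0 for the other 3. The 60hpf MG columns are the shallowest of the series, and FAM177A1 took 8.30% to 43.7% of their reads. With FAM177A1 left out of the read totals, the other 3 genes differed by 1.70, 1.87, and 3.04 log2 at 60hpf.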

How the results depend on the processing

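The number of genes that met the conditions was 114 with TMM factors (all 55 among them), 54 to 82 with another pseudocount, floor, or no minimum level, 38 with a minimum of 5, and 58 to 61 without 1 replicate number, where 52 of the 55 were kept in every case. ENSDARG00000104568, ENSDARG00000098455, and FAM177A1 were the ones lost. The median difference with TMM factors was -1.31 at 72hpf, 2.24 at 96hpf, -1.76 at 120hpf, and 1.96 log2 at 192hpf. Without 1 replicate it ranged from -1.0 to -0.90, from 1.76 to 1.83, from -2.07 to -1.87, and from 1.60 to 1.62 log2.

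At 48hpf the members at least 2-fold lower in MG numbered 20 with TMM factors, 16 with a floor of 10 reads, 3 by limma on columns (adjusted p under 0.05), 3 with a replicate block, 0 without 48hpf MG replicate 3, and 6 to 31 without 1 replicate number. The members higher numbered 0 with a floor of 10 reads, 1 with a pseudocount of 1 CPM, 1 with columns not joined, 1 without either single replicate 3 column, 2 with a replicate block, and 2 to 3 without 1 replicate number. At 60hpf the members higher numbered 13 with no floor, 11 by limma, 11 with a replicate block, and 5 to 7 without 1 replicate number. The members lower numbered 0 with TMM factors, 0 with a floor of 10 reads, 1 with columns not joined, 30 with no floor, 26 by limma, 26 with a replicate block, 0 with FAM177A1 left out of the totals, and 2 to 3 without 1 replicate number. With no floor, columns of 0 reads enter at the prior, and limma treats joined columns as replicates. The replicate numbers did not pair the samples, since the 18 correlations of deviations ran from -0.19 to 0.03. The settings without single replicate 3 columns and without FAM177A1 in the totals were chosen after seeing the data. For 48 and 60hpf, alternatives with shares of all genes were the limma fits, 48hpf without both replicate 3 columns, and FAM177A1 left out. These shares are given above. The counts under the other alternatives do not show whether the members moved more than all genes did. Beyond the fewer genes or columns of an alternative, the cause was not tested. Depth limits 60hpf MG most.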
